A study of Mus musculus with 4 samples.

Results

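The TNF superfamily and TRAF genes were taken as the genes listed as *Tnf*, or under a symbol that starts with *Tnfsf*, *Tnfrsf* or *Tnfaip*, or with *Traf* and a digit. This gave 37 of the 12661 genes listed, with 8 ligands, 12 receptors, 7 TRAF adaptors, 3 TRAF-interacting proteins and 7 genes named as TNF-induced. Expression was measured by bulk RNA-seq in the tissue around the femoral artery, mainly perivascular adipose tissue (PVAT), of wild type C57BL/6 mice. All mice were ovariectomized females, 11 weeks old by the labels. The sham group (n = 2) was taken 48 h after sham operation and the injury group (n = 2) 48 h after a wire was passed through the artery, and no source used here says whether a library came from 1 mouse or from pooled tissue. The p-values therefore measure the spread between these libraries, which may be technical.

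TNF superfamily ligands are mostly trimers on the cell surface that can be shed, as ADAM17 sheds TNF. They bind receptors of the TNF receptor superfamily, whose tails recruit TRAF adaptors and, in the receptors with a death domain, TRADD or FADD. The signal leads to NF-κB and MAP kinases or to cell death, and NF-κB in turn induces inhibitors of the pathway such as A20, the product of *Tnfaip3*. In adipose tissue TNF is made chiefly by macrophages and is known for its role in inflammation and insulin resistance.

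The values are signed and look log transformed. The log base and the zero point of a gene are not given in the sources used here, so differences are in deposited units and not in folds. All 4 values lay on one side of 0 in 7 of the 37 genes (18.9%) and in 23.7% of all genes, so 0 is not in general the mean of these libraries. A value shows how a gene varies between libraries and not how abundant its RNA is. The depth of the libraries is unknown.

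After injury, 24 of the 37 genes had a higher mean (64.9%, beside 50.9% of all genes) and 13 a lower mean. By limma with Benjamini-Hochberg adjustment over all 12661 genes, 3 of the 37 passed the 0.05 threshold, all of them higher, namely *Tnfaip8l2*, *Tnfrsf26* and *Traf3ip3*. This is 8.11% of the members, beside 3.76% of all genes called higher and 7.43% called in either direction. None of the 37 was called lower, beside 3.67% of all genes. Before adjustment, 14 members (37.8%) had a limma p-value under 0.05, beside 29.5% of all genes, and 5 of the 14 had a lower mean (*Tnfrsf19*, *Tnfrsf10b*, *Traf5*, *Traf3ip2* and *Tnfaip1*). Both injury libraries lay above both sham libraries in 16 of the 37 genes (43.2%), beside 31.6% of all genes. Both lay below in 10 of the 37 (27.0%), beside 30.3% of all genes. In either direction the groups were apart in 26 of the 37 (70.3%), beside 61.9% of all genes. The median difference was 0.17 deposited units over the members and 0.0085 over all genes. Over the members it was 0.035 without injury replicate 1, 0.11 without sham replicate 2 and 0.26 without injury replicate 2. Differences of 0.5 or more were found for 12 members (32.4%, against 11.8% of all genes), and differences of -0.5 or less for 4 (10.8%, against 12.5% of all genes). More members thus lay at the upper end of the differences than at the lower end, and few passed the threshold.

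**Figure D1:**
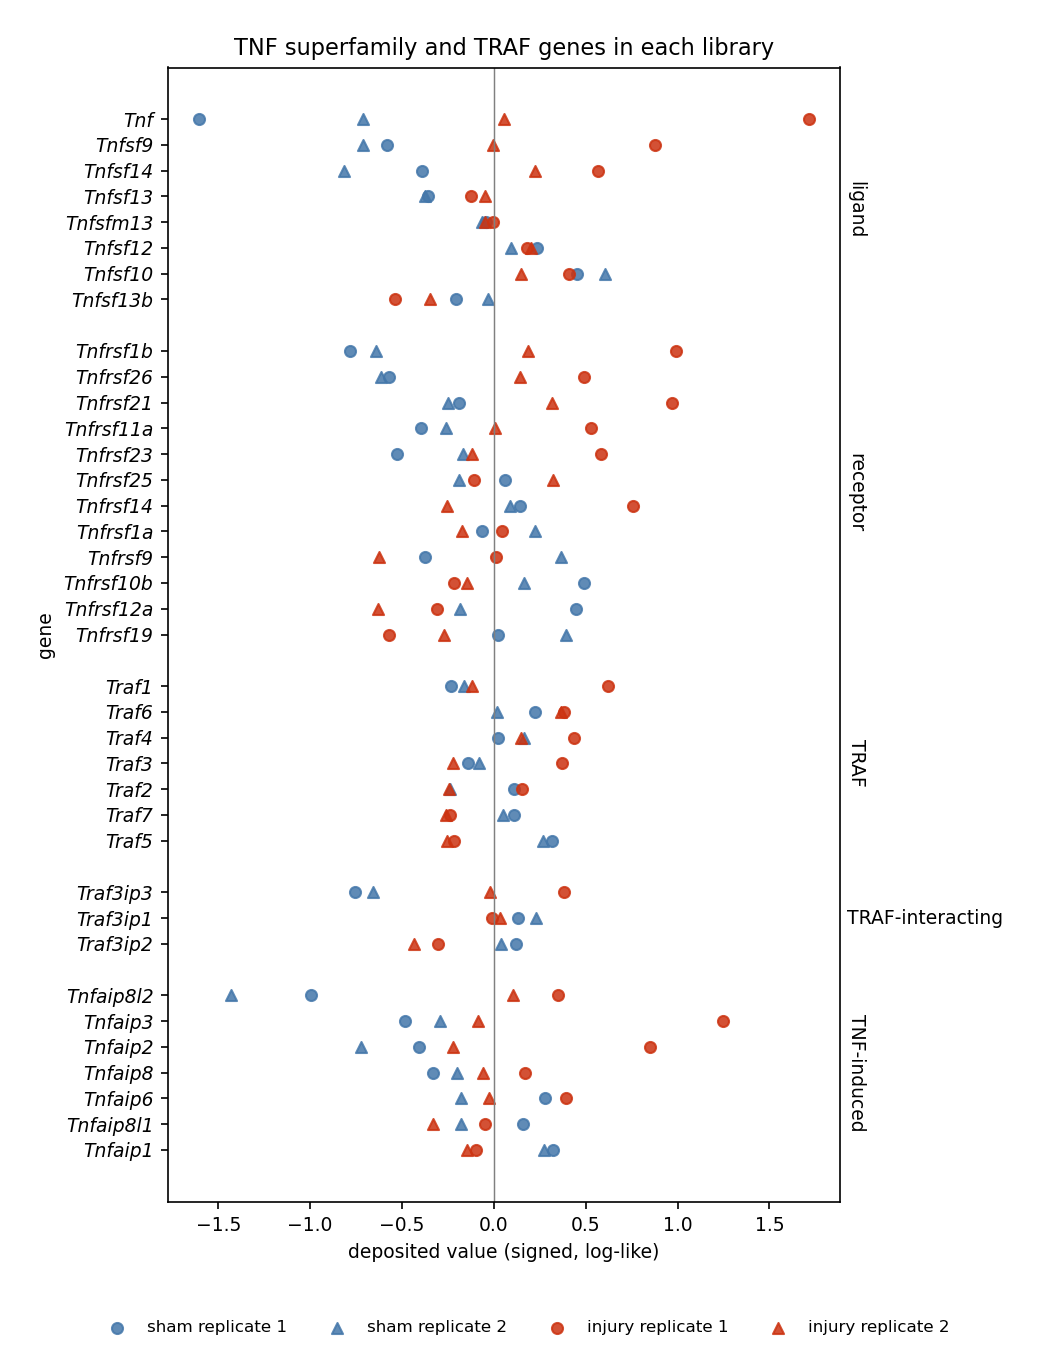
Deposited value (horizontal axis, signed and log-like) of each of the 37 genes in the 2 sham libraries (blue) and the 2 injury libraries (red), with circles for replicate 1 and triangles for replicate 2 and genes grouped by role. The widest spread is that of *Tnf*, from -1.61 in sham replicate 1 to 1.72 in injury replicate 1.

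Among the ligands, *Tnf*, the founding cytokine of the family (chromosome 17 of mm9, 35336326 to 35338952), had the largest difference of the 37 genes. Its values were -1.61 and -0.71 in the sham libraries and 1.72 and 0.05 in the injury libraries. The groups did not overlap, but the injury libraries lay 1.66 apart from each other. The difference was 2.05 (standard error 0.59, 95% interval 0.58 to 3.51), with an adjusted p = 0.0907 from limma. Leaving out injury replicate 1 gave 1.21, and leaving out injury replicate 2 gave 2.88.

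*Tnfsf9*, the ligand of the costimulatory receptor 4-1BB, was at -0.58 and -0.71 after sham operation and at 0.88 and -0.0026 after injury. Both injury values were above both sham values. Injury exceeded sham by 1.08 (standard error 0.30), with an adjusted p = 0.0845 from limma. The excess was 0.64 with injury replicate 1 left out and 1.52 with injury replicate 2 left out. *Tnfsf14*, which encodes LIGHT, a ligand of HVEM and of the lymphotoxin β receptor, was at -0.39 and -0.81 after sham operation and at 0.57 and 0.22 after injury. Here too the groups were apart, and the 2 injury libraries were closer to each other than for *Tnf* or *Tnfsf9*. Its difference of 0.999 (standard error 0.21) missed the threshold (adjusted p = 0.0514 from limma). It passed after quantile normalization of the columns (adjusted p = 0.0469 from limma), and the adjusted p ranged from 0.0410 to 0.0544 over the alternatives that keep all 4 libraries. *Tnf*, *Tnfsf9* and *Tnfsf14* all lie on chromosome 17, with 81734 bp between the latter pair in mm9.

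The other ligands differed less. *Tnfsf13*, which encodes APRIL, a factor for B cells and plasma cells, was at -0.36 and -0.38 after sham operation and at -0.12 and -0.05 after injury, a difference of 0.28 (95% interval -0.05 to 0.61). *Tnfsf12*, which encodes TWEAK, had overlapping groups, with values from 0.09 to 0.24 and a difference of 0.03 (95% interval -0.32 to 0.37). *Tnfsfm13*, the joint transcript of *Tnfsf12* and *Tnfsf13*, differed by 0.026 (95% interval -0.30 to 0.35), or by 0.0054 with injury replicate 1 left out and 0.046 with injury replicate 2 left out. *Tnfsf12* and *Tnfsf13* lie 465 bp apart on 1 strand of chromosome 11, the joint transcript shares exons with both, and how reads were split between the 3 genes is not given in the sources used here. Ligands with lower means were *Tnfsf10*, which encodes the death ligand TRAIL, and *Tnfsf13b*, which encodes the B cell survival factor BAFF. *Tnfsf10* was at 0.45 and 0.61 after sham operation and at 0.41 and 0.15 after injury, a difference of -0.25 that was -0.12 with injury replicate 2 left out and -0.38 with injury replicate 1 left out. *Tnfsf13b* was at -0.20 and -0.03 after sham operation and at -0.54 and -0.35 after injury. Neither passed the threshold in limma (adjusted p = 0.346 and adjusted p = 0.224).

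The pair of receptors that bind TNF had different values in the same libraries. *Tnfrsf1a* (chromosome 6 of mm9, 125299380 to 125312502), which encodes the widely expressed TNFR1 with a death domain, was at -0.06 and 0.23 after sham operation and at 0.05 and -0.18 after injury. Its groups overlapped, and the difference was -0.15 (standard error 0.17, 95% interval -0.57 to 0.28, adjusted p = 0.612 from limma). With a library left out it ranged from -0.29 (without sham replicate 1) to -0.0023 (without sham replicate 2). *Tnfrsf1b* (chromosome 4, 144803366 to 144836773), which encodes TNFR2, a receptor without a death domain found mainly on leukocytes and endothelium, was at -0.78 and -0.64 in the sham libraries. The injury libraries, at 0.99 and 0.19, were both above them. The difference was 1.30 (standard error 0.28, 95% interval 0.60 to 2.00), the third largest of the 37 genes, with an adjusted p = 0.0537 from limma. This call depended on the processing, since *Tnfrsf1b* passed the threshold after quantile normalization (adjusted p = 0.0454 from limma) and with columns scaled to one spread (adjusted p = 0.0456). Over the alternatives that keep all 4 libraries its adjusted p from limma ranged from 0.0454 to 0.0597. Whether the differences of *Tnfrsf1a* and *Tnfrsf1b* differ from each other was not tested.

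*Tnfrsf26* (chromosome 7, 150793568 to 150813858), a receptor gene that lies 37855 bp from the TRAIL decoy receptor gene *Tnfrsf23*, was at -0.57 and -0.61 after sham operation and at 0.49 and 0.14 after injury. The sham libraries were close together and both injury libraries lay above them. The difference was 0.91 (standard error 0.17, 95% interval 0.49 to 1.33, adjusted p = 0.0411 from limma), and *Tnfrsf26* was the only receptor called. With the replicate number as a block it was not called (adjusted p = 0.0523 from limma), and its range over the alternatives with all 4 libraries was 0.0355 to 0.0523. Its neighbour *Tnfrsf23* was at -0.53 and -0.17 after sham operation and at 0.58 and -0.12 after injury. The difference of *Tnfrsf23* was 0.58 and did not pass (adjusted p = 0.224 from limma). That difference became 0.23 with injury replicate 1 left out and 0.93 with injury replicate 2 left out. *Tnfrsf26* and *Tnfrsf23* belong to a cluster of closely related genes, so reads of one may have been counted for another.

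Further receptors with higher means were *Tnfrsf21*, which encodes the death receptor DR6, and *Tnfrsf11a*, which encodes RANK, the receptor of osteoclast and dendritic cell differentiation. *Tnfrsf21* was at -0.19 and -0.25 after sham operation and at 0.97 and 0.32 after injury, a difference of 0.86 (adjusted p = 0.0840 from limma). *Tnfrsf11a* was at -0.40 and -0.26 after sham operation and at 0.53 and 0.0053 after injury, a difference of 0.60 (adjusted p = 0.135 from limma). In both genes the injury libraries lay above the sham libraries. With injury replicate 1 left out the differences were 0.54 for *Tnfrsf21* and 0.33 for *Tnfrsf11a*. With injury replicate 2 left out they were 1.19 and 0.86.

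The 3 receptor genes with the lowest differences were *Tnfrsf19*, *Tnfrsf12a* and *Tnfrsf10b*. *Tnfrsf19*, which encodes TROY, known from ectodermal and neural progenitors, was at 0.02 and 0.39 after sham operation and at -0.57 and -0.27 after injury, a difference of -0.63. *Tnfrsf12a*, which encodes Fn14, the receptor of TWEAK and a gene known to be induced by growth factors and injury, was at 0.45 and -0.18 after sham operation and at -0.31 and -0.63 after injury, a difference of -0.60. *Tnfrsf10b*, the mouse receptor gene for TRAIL, was at 0.49 and 0.17 after sham operation and at -0.22 and -0.15 after injury, a difference of -0.51. In all 3 genes both injury libraries lay below both sham libraries, yet none passed the threshold in limma (in the same order, adjusted p = 0.105, 0.183 and 0.115). Without sham replicate 1 the difference of *Tnfrsf12a* was -0.29, and without sham replicate 2 it was -0.92. *Tnfrsf12a* shares 78 bp of exon with *Hcfc1r1* on the other strand, and whether the counting used strand is not given in the sources used here.

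In the other 3 receptor genes the groups overlapped. *Tnfrsf14*, which encodes HVEM, was at 0.14 and 0.09 after sham operation and at 0.76 and -0.25 after injury, so the injury libraries lay on either side of the sham libraries. *Tnfrsf9*, which encodes 4-1BB, was at -0.37 and 0.36 in the sham pair and at 0.01 and -0.63 in the injury pair. *Tnfrsf25*, which encodes the death receptor DR3, was at 0.06 and -0.19 in the sham pair and at -0.11 and 0.32 in the injury pair.

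TRAF proteins link the receptor tails to kinases and ubiquitin ligases. Limma called none of the 7 TRAF genes, beside 7.43% of all genes, and 1, *Traf5*, had an unadjusted p-value under 0.05, beside 29.5% of all genes. *Traf5* was at 0.32 and 0.27 after sham operation and at -0.22 and -0.26 after injury. Each group was tight and the groups were apart, with a difference of -0.53 (standard error 0.13, 95% interval -0.86 to -0.20, adjusted p = 0.0706 from limma). *Traf7*, which encodes a more distant relative of the others, was at 0.11 and 0.05 after sham operation and at -0.24 and -0.26 after injury. The difference was -0.33 (adjusted p = 0.171 from limma). An exon of *Traf7* overlaps *Caskin1* on the other strand by 56 bp.

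*Traf1*, itself a known target of NF-κB, was at -0.23 and -0.16 after sham operation and at 0.62 and -0.12 after injury, so that injury replicate 2 lay just above the sham libraries. Its difference was 0.45 (95% interval -0.21 to 1.10). This became 0.07 with injury replicate 1 left out and 0.82 with injury replicate 2 left out. *Traf6*, the adaptor shared with the interleukin 1 and Toll-like receptors, was at 0.22 and 0.02 after sham operation and at 0.38 and 0.37 after injury, a difference of 0.25 (95% interval -0.11 to 0.62), or 0.15 with sham replicate 2 left out. *Traf2*, the adaptor of TNFR1 and TNFR2 signalling, had overlapping groups and a difference of 0.02 (95% interval -0.50 to 0.53). *Traf3* and *Traf4* also overlapped, with differences of 0.18 and 0.20. That of *Traf4* was 0.054 with injury replicate 1 left out and 0.34 with injury replicate 2 left out.

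Of the 3 TRAF-interacting genes, *Traf3ip3* (chromosome 1 of mm9, 195001700 to 195027897), which encodes a partner of TRAF3 known mainly from lymphoid and myeloid cells, was called higher. It was at -0.75 and -0.66 after sham operation and at 0.38 and -0.02 after injury, with no overlap. The difference was 0.89 (standard error 0.18, 95% interval 0.43 to 1.34, adjusted p = 0.0492 from limma). The call was close to the threshold and was lost with the replicate block (adjusted p = 0.0659), a robust variance prior (0.0512) and quantile normalization (0.0501), each from limma. The lowest adjusted p over the alternatives with all 4 libraries was 0.0449. An exon of *Traf3ip3* overlaps *A130010J15Rik* on the other strand by 254 bp. *A130010J15Rik* had values from -0.38 to 0.09 with overlapping groups and a difference of 0.07 (adjusted p = 0.843 from limma).

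The other TRAF-interacting genes were lower in both injury libraries. *Traf3ip2*, which encodes ACT1, the adaptor of the interleukin 17 receptor, was at 0.12 and 0.04 after sham operation and at -0.31 and -0.43 after injury. The difference was -0.45 (adjusted p = 0.105 from limma). An exon of *Traf3ip2* overlaps *E130307A14Rik* on the other strand by 224 bp. *Traf3ip1*, which encodes a protein of intraflagellar transport, was at 0.13 and 0.23 after sham operation and at -0.01 and 0.03 after injury, a difference of -0.17 (adjusted p = 0.453 from limma).

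The genes named as TNF-induced are unrelated in function apart from the *Tnfaip8* group. *Tnfaip8l2* (chromosome 3 of mm9, 94943443 to 94946282), which encodes TIPE2, a brake on inflammatory signalling found mainly in immune cells, was at -0.99 and -1.43 after sham operation and at 0.35 and 0.11 after injury. The groups were well apart. The difference was 1.44 (standard error 0.20, 95% interval 0.94 to 1.94, adjusted p = 0.0291 from limma), the second largest of the 37 genes. It was the only member called in all 6 alternatives that keep the 4 libraries and the 0.05 threshold, with an adjusted p from 0.0291 to 0.0364. Of its relatives, *Tnfaip8* differed by 0.32 (95% interval -0.06 to 0.71) and *Tnfaip8l1* by -0.18 (95% interval -0.65 to 0.29), neither of them called. *Tnfaip8* differed by 0.21 with injury replicate 1 left out, and *Tnfaip8l1* by -0.013 with sham replicate 1 left out and by -0.35 with sham replicate 2 left out.

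*Tnfaip3* (chromosome 10 of mm9, 18720716 to 18735463), which encodes the NF-κB inhibitor A20, was at -0.48 and -0.29 after sham operation and at 1.25 and -0.09 after injury. Injury replicate 1 was far above the others. The difference was 0.97 (standard error 0.43, 95% interval -0.11 to 2.04, adjusted p = 0.204 from limma). It was 0.30 when injury replicate 1 was left out and 1.64 when injury replicate 2 was. *Tnfaip2*, which encodes a protein of membrane nanotubes, also had its highest value in injury replicate 1, at -0.41 and -0.72 after sham operation and at 0.85 and -0.22 after injury, a difference of 0.88 (adjusted p = 0.179 from limma). This was 0.34 when injury replicate 1 was left out and 1.41 when injury replicate 2 was. *Tnfaip6*, which encodes the hyaluronan-binding protein TSG-6, had overlapping groups and a difference of 0.13 (95% interval -0.44 to 0.70). *Tnfaip1*, which encodes an adaptor of a cullin ubiquitin ligase, was at 0.32 and 0.27 after sham operation and at -0.10 and -0.15 after injury, a difference of -0.42 (adjusted p = 0.109 from limma).

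**Figure D2:**
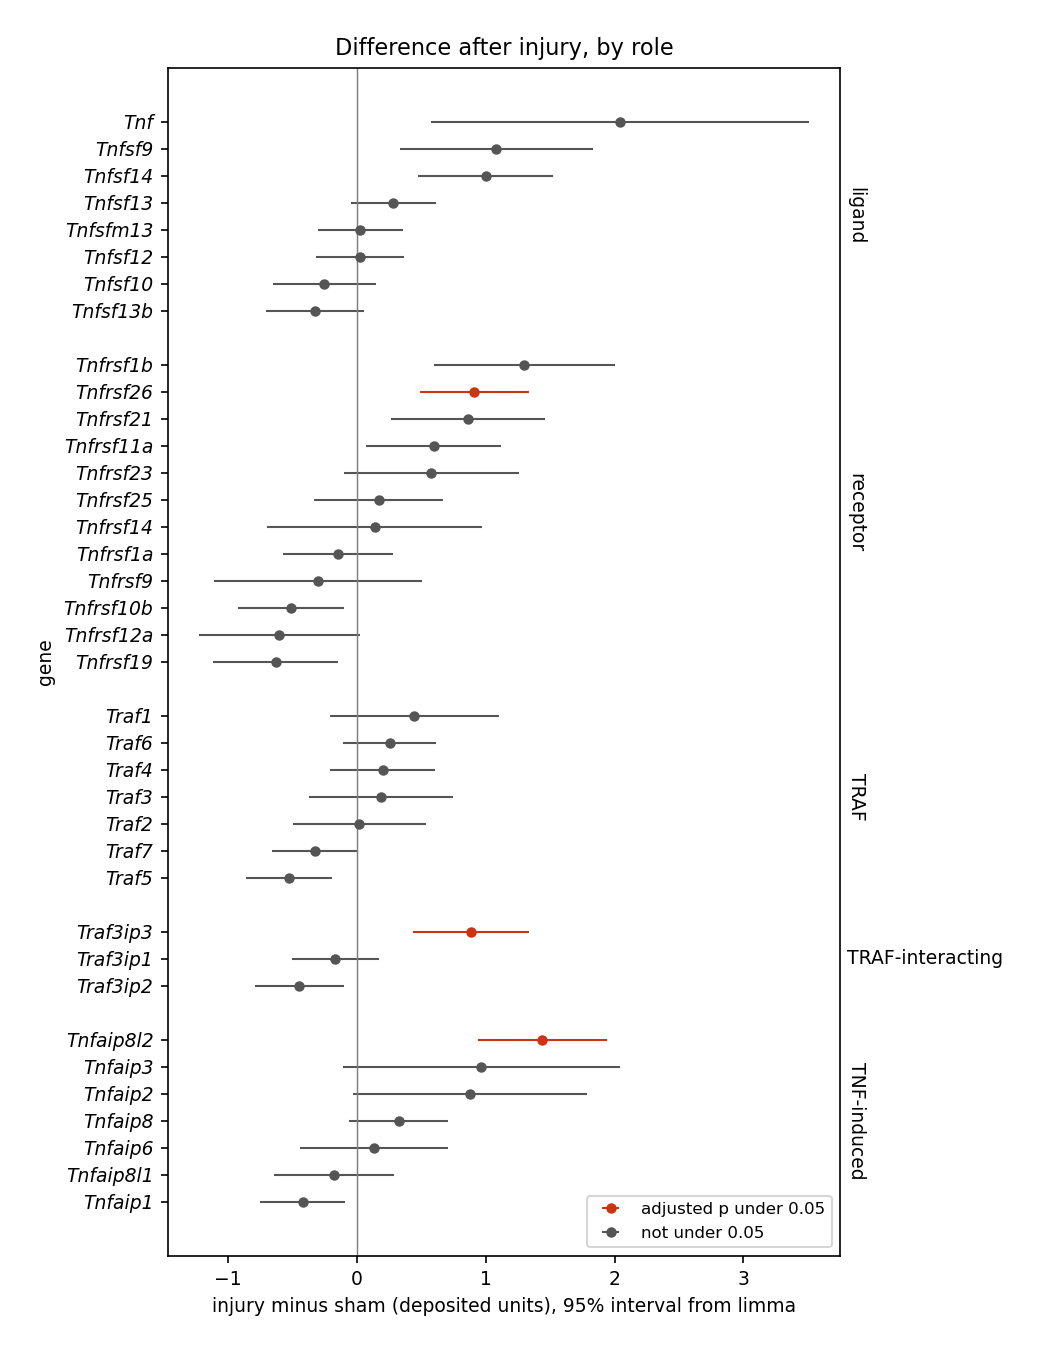
Difference between injury and sham means (horizontal axis, deposited units) for each of the 37 genes, with 95% intervals from limma and genes grouped by role. The 3 genes called, in red, are *Tnfrsf26* (0.91), *Traf3ip3* (0.89) and *Tnfaip8l2* (1.44), and the wider interval of *Tnf* runs from 0.58 to 3.51.

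Promoters are shown for 2 of the called genes and, beside them, for *Tnf* and *Tnfaip3*, the cytokine and the inhibitor that stand for the pathway. The sequences are the 250 bases before the transcription start, 5′ to 3′ on the strand of the gene, from RefSeq on GRCm38.p6, a later build than the mm9 of the gene positions above. Symbols of 31 of the 37 genes matched, with 36 promoters. Capitals mark matches on either strand to the κB consensus bound by NF-κB, to TGANTCA, the element bound by AP-1, or to GAGGAAG, which holds the GGAA core bound by the ETS family, to which the myeloid factor PU.1 belongs. The promoters lie at chr1:193201547-193201796 (*Traf3ip3*), chr3:95142355-95142604 (*Tnfaip8l2*), chr17:35202008-35202257 (*Tnf*) and chr10:19015411-19015660 (the upstream of the 2 listed for *Tnfaip3*), all on the minus strand.
*Traf3ip3*: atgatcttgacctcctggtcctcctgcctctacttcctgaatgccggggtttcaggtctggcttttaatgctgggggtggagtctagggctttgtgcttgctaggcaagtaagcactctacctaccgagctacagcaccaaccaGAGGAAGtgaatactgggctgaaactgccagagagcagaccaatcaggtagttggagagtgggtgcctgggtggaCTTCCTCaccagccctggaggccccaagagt
*Tnfaip8l2*: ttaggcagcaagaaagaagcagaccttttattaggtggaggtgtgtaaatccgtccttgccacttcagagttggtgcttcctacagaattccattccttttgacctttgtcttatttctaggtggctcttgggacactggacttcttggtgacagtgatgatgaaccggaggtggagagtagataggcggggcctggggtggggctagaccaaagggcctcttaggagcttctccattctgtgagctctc
*Tnf*: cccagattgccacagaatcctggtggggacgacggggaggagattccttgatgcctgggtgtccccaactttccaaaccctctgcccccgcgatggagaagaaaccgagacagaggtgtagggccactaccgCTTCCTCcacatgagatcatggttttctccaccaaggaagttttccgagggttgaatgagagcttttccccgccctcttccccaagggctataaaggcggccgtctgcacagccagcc
*Tnfaip3*: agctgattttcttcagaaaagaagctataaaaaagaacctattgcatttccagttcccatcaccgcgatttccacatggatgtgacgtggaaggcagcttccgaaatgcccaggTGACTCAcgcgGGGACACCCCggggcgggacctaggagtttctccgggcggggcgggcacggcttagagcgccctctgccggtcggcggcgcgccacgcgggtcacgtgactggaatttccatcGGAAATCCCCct

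The *Traf3ip3* promoter held GAGGAAG at -106 to -100 on the strand of the gene and at -31 to -25 on the other strand. The *Tnf* promoter held it once, at -118 to -112 on the other strand. The *Tnfaip3* promoter shown held TGACTCA at -136 to -130 and κB matches at -125 to -116 and at -12 to -3, none of them overlapping. The other promoter listed for *Tnfaip3*, at chr10:19011964-19012213, held none of the 3 motifs. The *Tnfaip8l2* promoter held none of the 3 motifs in this window. Among all 32851 promoters of the same length, 7.25% held a κB match, 6.75% TGANTCA and 10.6% GAGGAAG. Among the 36 member promoters the counts were 6 (16.7%), 6 (16.7%) and 8 (22.2%). The κB matches were in *Tnfaip2*, *Tnfaip3*, *Tnfaip8l1*, *Tnfrsf9*, *Tnfrsf25* and *Traf3*. Both injury libraries lay above both sham libraries in 2 of these 6 genes, *Tnfaip2* and *Tnfaip3*, beside 31.6% of all genes. A match of letters does not show that a factor binds.

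The injury libraries differed from each other. Injury replicate 1 had the higher value of the pair in 30 of the 37 genes (81.1%), beside 48.9% of all genes. This held for all 7 TRAF genes and all 7 genes named as TNF-induced, for 9 of the 12 receptors and for 5 of the 8 ligands. Over the 24 genes with a higher mean after injury, the median gap between the injury libraries was 0.41, against 0.06 over the 6450 such genes of the whole table. Without injury replicate 2, limma called 13 members higher (35.1%), beside 943 of all genes (7.45%). Without injury replicate 1, 0 of the 37 were called, beside 284 of all genes (2.24%) in either direction. Without sham replicate 1 and without sham replicate 2 again 0 were called, beside 0 and 1 of all genes. In these fits 1 residual degree of freedom is left per gene and the lone library is assumed to vary like the other group.

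All 10 macrophage markers had a higher mean after injury and 6 were called, among them *Csf1r* and *C1qa*, with list means of -1.01 and -1.08 in the sham libraries and 0.42 and -0.16 in the injury libraries. Of 7 neutrophil markers analysed 6 had a higher mean and 1 of them, *Retnlg*, was called, while *Lcn2* had a lower mean (-0.97), with list means of -1.01 and -0.65 after sham operation and 1.17 and 0.0056 after injury. As for the members, the mean of both lists was higher in injury replicate 1 than in its partner. Of 6 B cell markers only *Cd79b* was analysed, and of 7 T cell markers only *Cd2* and *Lck*, and none was called. Lower after injury were the means of all 8 endothelial markers (3 called), all 6 smooth muscle markers (4 called), 6 of 7 fibroblast markers (4 called), all 4 skeletal muscle markers analysed (0 called) and 6 of 10 adipocyte markers (1 called, *Plin1*). The tissue is labelled as PVAT, and the adipocyte markers *Adipoq*, *Plin1* and *Fabp4* were all among the genes analysed. Skeletal muscle markers were analysed too, so this does not show how much of the tissue was fat. In bulk tissue a change in the number of cells of a type and a change in RNA per cell cannot be told apart, and the part of these cell types in the differences of the members was not tested.

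**Figure D3:**
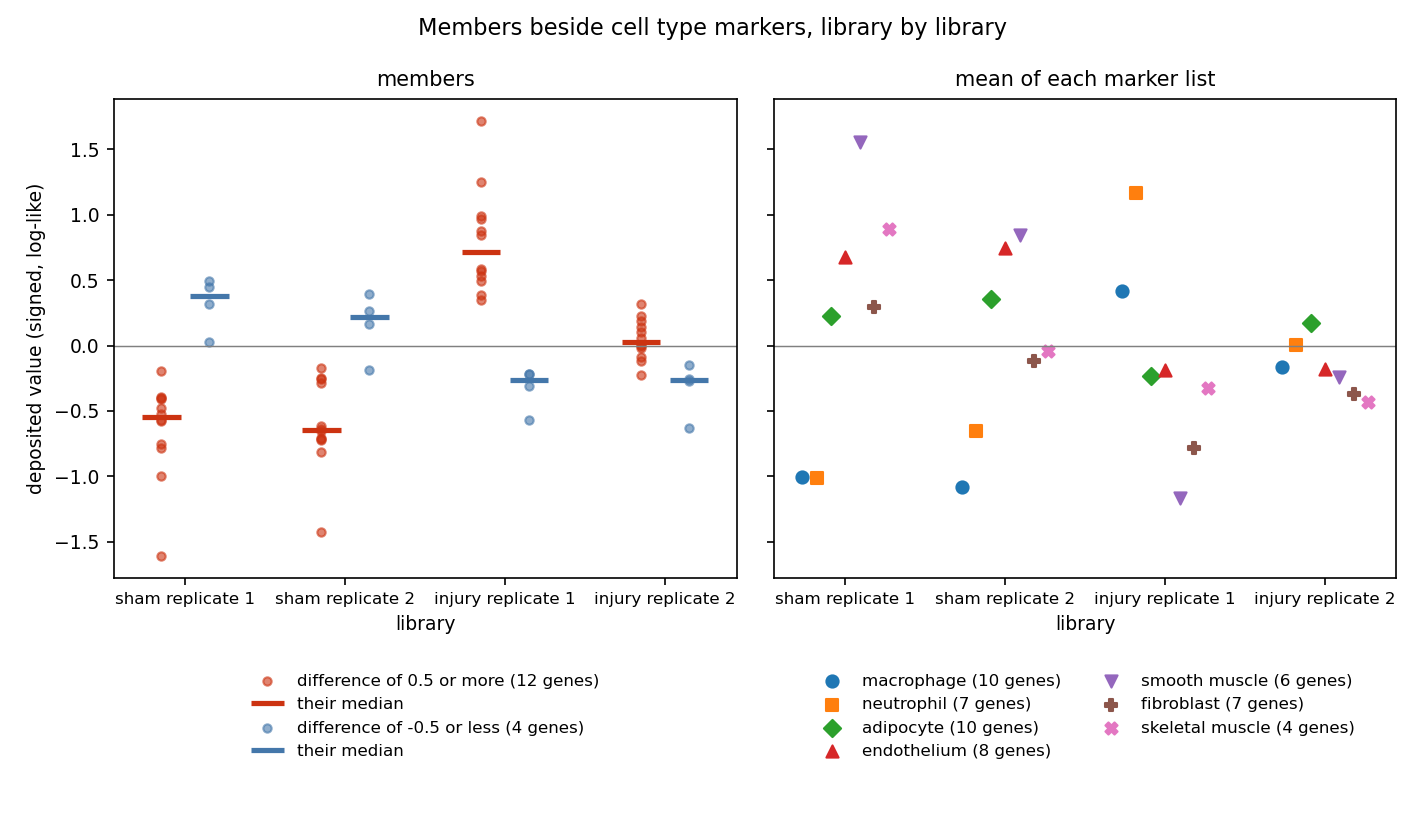
Deposited values by library (horizontal axis) of the 12 members with a difference of 0.5 or more and the 4 with a difference of -0.5 or less (left, points for genes and bars for medians), beside the mean of each marker list with at least 3 genes analysed (right). The median of the 12 genes was -0.55 and -0.65 in the sham libraries and 0.71 and 0.03 in the injury libraries, and these genes were grouped by that difference.

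Genes of the same pathway outside the symbol rule were counted from lists of 56 genes, of which 49 were analysed. Limma called 3 of the 49 (6.12%), all higher (*Relt*, *Ikbke* and *Tnip3*), beside 3.76% of all genes called higher and 7.43% called in either direction. A higher mean was found in 38 of the 49 (77.6%), beside 50.9% of all genes. Among 8 other members of the family, *Relt*, a receptor of lymphoid tissue, was at -1.08 and -0.95 after sham operation and at 0.82 and 0.21 after injury, a difference of 1.53 (standard error 0.23, adjusted p = 0.0303 from limma). *Ltb*, the lymphotoxin β gene, differed by 1.34 and *Cd40*, the costimulatory receptor gene, by 0.91 (limma, adjusted p = 0.0726 and 0.158). The death receptor gene *Fas* differed by -0.02 with overlapping groups. In *Ltbr* (-0.27) and *Eda2r* (-0.37) both injury libraries lay below both sham libraries (limma, adjusted p = 0.242 and 0.215). Of these 8 genes 5 had a higher mean and 3 a lower mean.

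Among 27 genes that act close to the receptor, *Ikbke*, which encodes the kinase IKKε, was at -1.12 and -1.08 after sham operation and at 0.76 and 0.14 after injury, a difference of 1.54 (standard error 0.23, adjusted p = 0.0301 from limma). *Tnip3*, which encodes a partner of A20, was at -1.03 and -0.96 after sham operation and at 0.52 and 0.16 after injury, a difference of 1.34 (standard error 0.17, adjusted p = 0.0291 from limma). The groups were apart in 12 of the 27 genes, 11 with injury higher and 1 with injury lower, beside 61.9% of all genes in either direction, 31.6% higher and 30.3% lower. The genes not called included *Birc3*, which encodes the ubiquitin ligase cIAP2, at a difference of 0.73 (95% interval 0.06 to 1.39), *Otulin*, which encodes a deubiquitinase of linear chains, at 0.67 (95% interval 0.29 to 1.05), and *Tab3*, which encodes a partner of the kinase TAK1, at -0.61 (95% interval -0.999 to -0.23). Also not called were the genes of the adaptors and kinase that death domains recruit, with *Tradd* at -0.03 (95% interval -0.41 to 0.35), *Ripk1* at 0.13 (95% interval -0.23 to 0.50) and *Fadd* at 0.06 (95% interval -0.30 to 0.42). These 6 uncalled genes were chosen after their values were seen.

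Of 14 genes of the NF-κB core limma called none, 1 of them (*Nfkbid*) had an unadjusted p-value under 0.05, and the groups were apart in 3. The shares over all genes were 7.43% called, 29.5% with such a p-value and 61.9% with groups apart. The subunit genes *Rela*, *Nfkb1*, *Rel*, *Nfkb2* and *Relb* differed by 0.03, -0.12, -0.0035, 0.26 and 0.18, each with overlapping groups. Of the genes named as inhibitors, *Nfkbia* and *Nfkbid* differed by 0.40 and 1.63 (limma, adjusted p = 0.186 and 0.0799). *Nfkbib*, *Nfkbie* and *Nfkbiz* differed by 0.10, 0.54 and 0.25, with overlapping groups. In all 14 genes injury replicate 1 had the higher value of the injury pair.

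**Figure D4:**
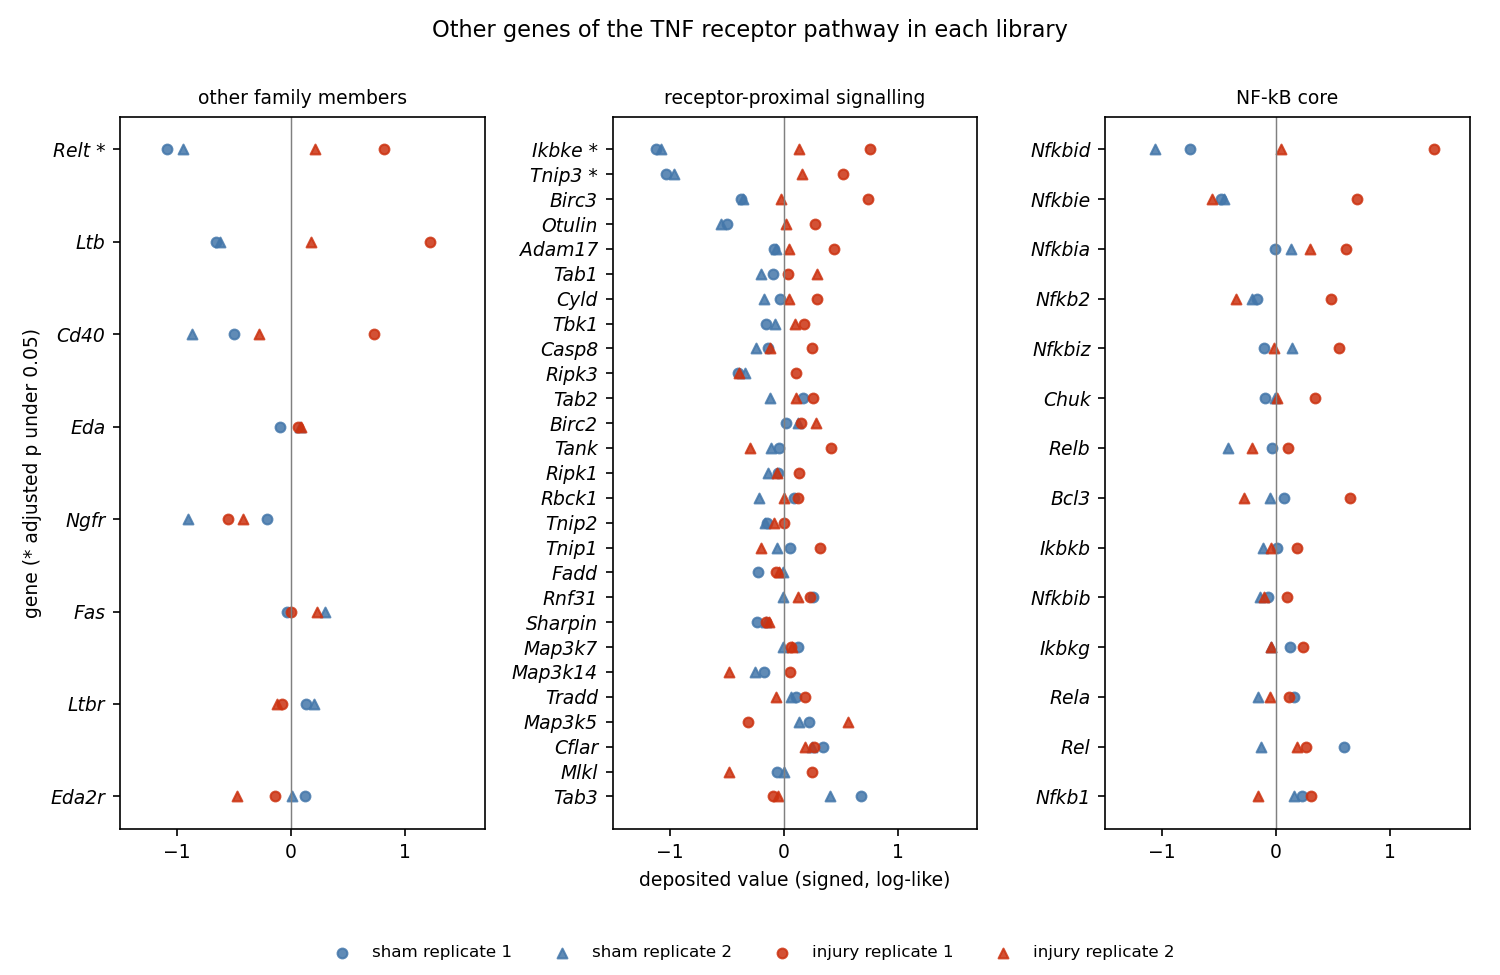
Deposited value (horizontal axis, signed and log-like) in the 4 libraries of 49 pathway genes outside the symbol rule, in 3 panels by list, with an asterisk at the genes called by limma. The genes called are *Relt*, *Ikbke* and *Tnip3*, and *Nfkbid* has the largest difference (1.63) without a call.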

How the data were processed

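Each of the 4 libraries was prepared with a stranded mRNA kit, and the RNA input was 480 ng. The authors trimmed the reads with cutadapt 1.18 and Trimmomatic 0.39, aligned them to mm9 with STAR 2.6.0a and counted them with featureCounts, and the submitters' processing notes also list DESeq2 1.28.0. The values the authors deposited are a signed score for each gene and library and not counts, and the step between, the gene filter and the depth are not given in the sources used here. Intervals from counting could therefore not be given, and no filter was applied.

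Groups were taken from the titles. Injury and sham were compared with limma 3.58.1 in R 4.3.3 (group as the only term, 2 residual and 3.48 prior degrees of freedom), with Benjamini-Hochberg adjustment over 12661 genes and a threshold of 0.05, tested on simulated data. With 2 against 2 an exact permutation test cannot go below p = 0.333. Full statistics are given for called members and for *Tnf*, *Tnfrsf1a*, *Tnfrsf1b* and *Tnfaip3*, and library values for the 5 highest and 5 lowest differences, while other members were added for their role. The members, lists and motifs were chosen with earlier results of these data known. Positions are from GENCODE on NCBIM37 (mm9), which matched 36 of the 37 symbols, and 14 further coding genes of the family were not analysed here. Tables were handled with pandas 2.3.3 in Python 3.11.15.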

Additional observations from a re-analysis of the deposited data

How the results depend on the processing

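The 6 alternatives that keep all 4 libraries and the 0.05 threshold called 5.40% to 8.59% of all genes and 5.41% to 13.5% of the members. The variance trend called 8.32% of all genes and 13.5% of the members. The count of members called was 3, and 2 to 5 under these 6 alternatives, with 5 under the variance trend. It was 9 at an adjusted p under 0.1 and 1 with a minimum difference of 1 unit, and 0 to 13 with a library left out. Over all genes 941 were called, with 2317 at 0.1, 591 with the minimum difference and 0 to 1790 with a library left out. Of the pathway genes 3 were called, 7 at 0.1 and 0 to 9 with a library left out. The median difference of the members was 0.17, and 0.035 to 0.26 with a library left out. The labels number the replicates, but the 2 sham and 2 injury libraries with the same number are not said to share an animal or batch, and deviations of same-numbered libraries correlated at -0.09 over all genes. With the replicate block 684 genes (5.40%), 2 members (5.41%, *Tnfaip8l2* and *Tnfsf14*) and 4 pathway genes (8.16%) were called.

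Directions were kept in every fit of all 4 libraries. With a library left out, 7 differences changed sign, none of them a call: *Tnfsf12* ranged from -0.046 to 0.096, *Traf3* from -0.11 to 0.48, *Traf2* from -0.18 to 0.22, *Tnfaip6* from -0.10 to 0.36, *Tnfrsf9* from -0.67 to 0.068, *Tnfrsf25* from -0.045 to 0.39 and *Tnfrsf14* from -0.37 to 0.64. The causes were not tested. Depth is unknown, so what it limits cannot be stated.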
